A study of Mus musculus with 8 samples.

Results

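Expression of 9 genes of the Sonic hedgehog pathway was examined in the mouse cortex at postnatal day 3 (P3) after deletion of the BAF complex subunits BAF155 and BAF170. The genes were Shh, Ptch1, Smo, Gli1, Gli2, Gli3, Hhip, Sufu and Boc, taken by symbol, and all 9 were found among the 48709 genes listed in the count files. BAF155 (gene Smarcc1) and BAF170 (gene Smarcc2) are scaffolding subunits of BAF, a chromatin remodelling complex that moves nucleosomes along DNA. RNA sequencing compared whole cortical tissue of 4 dcKO_hGFAP-Cre mice (hereafter dcKO) with that of 4 control mice, all on a C57BL/6J background. Per the methods of the study, the dcKO mice were BAF155 fl/fl; BAF170 fl/fl and carried hGFAP-Cre, a transgene that expresses Cre recombinase from the human GFAP promoter in progenitors of the dorsal telencephalon. The methods give controls as BAF155 fl/+; BAF170 fl/+ with Cre, so that both groups carry the transgene and controls can lose 1 copy of each gene, whereas the sample titles call them wild type. The dcKO mutants are stated to die soon after birth. Cells that never expressed Cre, or that migrated in from elsewhere, keep both genes and contribute to the same libraries.

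Hedgehog ligands are secreted proteins that pattern the embryonic nervous system and later sustain neural progenitors and oligodendrocyte precursors in the forebrain. Without ligand, the receptor PTCH1 holds the membrane protein SMO inactive, and GLI proteins are retained by SUFU or processed to repressors at the primary cilium. With ligand, SMO is released and GLI activators switch on target genes, among them Gli1, Ptch1 and Hhip themselves, which are widely used as readouts of the pathway.

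Of the 9 genes, 5 were higher in dcKO than in control cortex (Ptch1, Smo, Gli1, Gli2 and Gli3), 3 were lower (Shh, Hhip and Boc) and Sufu did not pass the test. A gene was called when its p from the quasi-likelihood test of edgeR, adjusted over 16525 genes by Benjamini-Hochberg, was under 0.05. SE is the standard error of a log2 fold change. Changes were widespread in this tissue: 18.6% of all genes tested were called higher, 18.9% lower and 37.5% in either direction. The range of the 4 dcKO samples did not overlap that of the 4 controls for 6 of the 9 genes, compared with 34.4% of all genes tested. Gli1 was called higher with a log2 fold change of at least 1, as were 4.4% of all genes, and Hhip and Boc were called lower with one of -1 or less, as were 2.81%. The median log2 fold change was 0.52 over the 9 genes and 0.02 over all genes. In this bulk tissue, fewer cells of a type and less RNA per cell cannot be told apart, for these genes or any other.

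**Figure D1:**
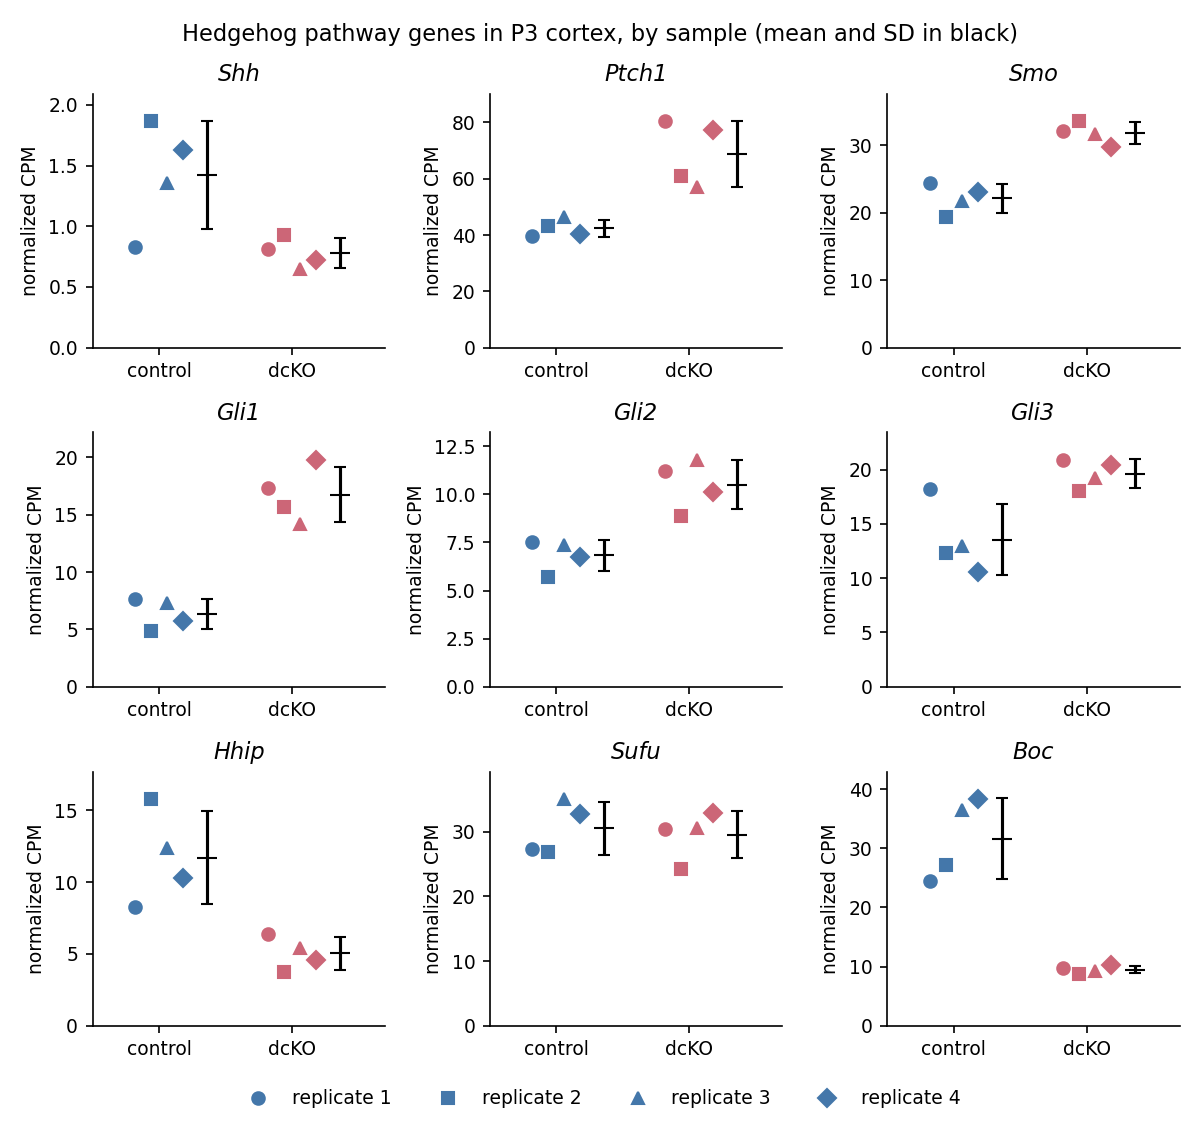
Normalized counts (CPM, the count of a gene scaled to a common library size, y axis, linear and starting at 0) of the 9 hedgehog pathway genes in each P3 cortex sample, with control in blue and dcKO in red. Marker shapes give the replicate number and the black bar the mean with its SD (n = 4). Boc, Gli1, Gli2, Hhip, Ptch1 and Smo show no overlap between the groups, whereas control replicate 1 lies within the dcKO range for Shh and Gli3.

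The 8 libraries held between 21126713 and 32110285 counted reads, and 30608 genes had at least 1 count. Both target genes were lower in every dcKO sample than in every control, at 81.2 ± 5.9 against 159 ± 11.2 CPM (SD, n = 4 each) for Smarcc1 and 283 ± 28.2 against 483 ± 14.7 CPM for Smarcc2. CPM values were normalized by the TMM method of edgeR. All 12 markers of cortical projection neurons were present, with a summed level of 2300 to 2450 CPM in control and 1330 to 1470 CPM in dcKO samples, and 9 of the 12 were lower in dcKO. Markers of choroid plexus, a tissue that lies beside the cortex, summed to 624 and 1190 CPM in dcKO replicates 1 and 2 but to no more than 26.2 CPM in the other 6 libraries, so results are also given without those 2 libraries. By the labels, lane 5 held replicates 1 and 2 of each group, lane 6 held replicate 3 and lane 7 held replicate 4. Nothing in the labels says how the mice of a group are related, so p-values set group differences against the variation among these samples only.

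The ligand Shh (ENSMUSG00000002633, chromosome 5 from 28456815 to 28467256 in mm10) was the gene at the lowest level of the 9. Its level was 0.828, 1.87, 1.36 and 1.63 CPM in control replicates 1 to 4 and 0.812, 0.932, 0.648 and 0.725 CPM in dcKO replicates 1 to 4. Control replicate 1 sat among the dcKO samples, and the other 3 controls were above every dcKO sample. The means were 1.42 ± 0.449 CPM in control and 0.779 ± 0.122 CPM in dcKO (SD, n = 4 each). The log2 fold change was -0.87 (SE 0.28, edgeR quasi-likelihood adjusted p = 0.0251), with a 95% interval from -1.47 to -0.28. These values rest on 18 to 47 reads per control library and 19 to 24 per dcKO library, so their counting error is large. The exact permutation test, two-sided over the 70 arrangements of 4 samples against 4, gave p = 0.0571. The call was lost on leaving out any 1 of 6 of the 8 libraries, each of control replicates 2, 3 and 4 and dcKO replicates 1, 3 and 4, with a highest adjusted p of 0.0771 by the same edgeR test. Without dcKO replicates 1 and 2 together the log2 fold change was -1.04 (adjusted p = 0.076 in the edgeR test). Exons of Shh share 446 bases with the antisense gene 9530036O11Rik, at 2 to 12 reads per library, and 361 bases with Gm26894, at 3 to 10 reads. The strand setting of the counting is not given in the sources used here, so reads of Shh and of these partners cannot be told apart where they overlap.

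The other mammalian hedgehog ligands were nearly undetected in both groups. Ihh, known from cartilage and gut, had 2 to 12 reads per library in control and 3 to 10 in dcKO. Dhh, known from Schwann and Sertoli cells, had 3 to 14 reads in control and 11 to 13 in dcKO. Neither passed the filter on low counts, and no difference was detectable at this depth.

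Among the members whose proteins meet the ligand at the cell surface, RNA of the receptor gene Ptch1 rose. RNA of the co-receptor gene Boc and of the decoy gene Hhip fell. Ptch1 (ENSMUSG00000021466, chromosome 13 from 63508328 to 63573598) encodes the receptor that keeps SMO inactive. Its level was 39.8, 43.1, 46.4 and 40.3 CPM in control and 80.6, 60.8, 57.1 and 77.3 CPM in dcKO replicates 1 to 4. Every dcKO sample was above every control, with dcKO replicates 1 and 4 the highest. The means were 42.4 ± 3.04 and 68.9 ± 11.7 CPM (SD, n = 4 each), 1.63-fold higher in dcKO. In the test this was a log2 fold change of 0.70 (SE 0.12, edgeR quasi-likelihood adjusted p = 0.000632). Without dcKO replicates 1 and 2 the log2 fold change was 0.67.

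Boc (ENSMUSG00000022687, chromosome 16 from 44485049 to 44558897) encodes an immunoglobulin-like co-receptor that binds hedgehog ligands together with PTCH1. It showed the largest fall and the smallest adjusted p of the 9 genes. Its level was 24.4, 27.2, 36.5 and 38.4 CPM in control and 9.79, 8.77, 9.25 and 10.2 CPM in dcKO replicates 1 to 4. The dcKO samples lay close together and far below the controls, which fell into a lower pair on lane 5 and a higher pair on lanes 6 and 7. The means were 31.6 ± 6.85 and 9.5 ± 0.626 CPM (SD, n = 4 each), 3.33-fold lower in dcKO. Tested over all 8 samples, Boc had a log2 fold change of -1.74 (SE 0.15, edgeR quasi-likelihood adjusted p = 5.75e-06). Within lane 5, with 2 samples a group and no test, it was -1.49.

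Hhip (ENSMUSG00000064325, chromosome 8 from 79965851 to 80058006) encodes a membrane-bound decoy that binds hedgehog ligands and is, like Ptch1, a known feedback target of the pathway. Its level was 8.24, 15.8, 12.4 and 10.3 CPM in control and 6.41, 3.77, 5.39 and 4.56 CPM in dcKO replicates 1 to 4. The groups did not overlap, and control replicate 1 was the control nearest to the dcKO samples. The means were 11.7 ± 3.24 and 5.03 ± 1.13 CPM (SD, n = 4 each), 2.32-fold lower in dcKO. The log2 fold change was -1.22 (SE 0.21, edgeR quasi-likelihood adjusted p = 0.000916). Hhip thus moved opposite to Ptch1 and Gli1, the other known feedback targets among the 9 genes.

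The promoters of Ptch1 and Hhip are shown because these feedback targets changed in opposite directions. Each window holds the 250 bases before the annotated start, from RefSeq on GRCm38.p6, read 5′ to 3′ on the minus strand of the genome, the strand of both genes. The Ptch1 window is chr13:63565736-63565985, which lies within the annotated span of Ptch1. The Hhip window is chr8:80058009-80058258, outside the annotated span of Hhip.
Ptch1: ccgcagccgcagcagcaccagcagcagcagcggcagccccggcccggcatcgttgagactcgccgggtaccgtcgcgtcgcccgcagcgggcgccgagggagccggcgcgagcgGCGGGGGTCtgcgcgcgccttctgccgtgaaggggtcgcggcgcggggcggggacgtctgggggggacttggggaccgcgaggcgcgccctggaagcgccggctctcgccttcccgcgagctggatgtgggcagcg
Hhip: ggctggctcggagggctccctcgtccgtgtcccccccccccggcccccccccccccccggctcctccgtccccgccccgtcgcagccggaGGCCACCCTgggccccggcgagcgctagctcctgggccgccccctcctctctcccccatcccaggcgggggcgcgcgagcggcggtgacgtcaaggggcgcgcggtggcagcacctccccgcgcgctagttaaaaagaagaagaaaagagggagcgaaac
Capitals mark the first stretch found with the best match to GACCACCCA, the 9-letter sequence that GLI proteins are known to bind, on either strand. Other stretches that match equally well are not marked. The best stretch matches 6 of the 9 letters in Ptch1 and 7 of 9 in Hhip, and 98.6% and 51.8% of the 32841 promoters of this length match at least as well. Neither window holds the full site, found in 0.225% of promoters on either strand, nor its 7-letter core CCACCCA, found in 8.11%. The same was true of the windows of Smo, Gli2, Gli3 and Sufu, the other members with a promoter in the table. Shh, Gli1 and Boc had no entry. The Ptch1 window has 41 CpG dinucleotides and a GC content of 78.4%, and the Hhip window 28 and 76.0%. The median over the promoters searched is 6 CpG and 52.4%. That set leaves out 1 chromosome, which holds none of the members, and windows that were shorter or held an undetermined base. These windows describe the sequence before 1 annotated start and say nothing of sites elsewhere.

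Smo (ENSMUSG00000001761, chromosome 6 from 29735503 to 29761365) encodes the membrane protein that passes the signal on once PTCH1 lets go of it. Its level was 24.4, 19.4, 21.7 and 23.0 CPM in control and 32.1, 33.6, 31.7 and 29.7 CPM in dcKO replicates 1 to 4. All dcKO samples were above all controls, and the spread within each group was small beside the gap between the means. The means were 22.1 ± 2.14 and 31.8 ± 1.59 CPM (SD, n = 4 each), 1.44-fold higher in dcKO, with a log2 fold change of 0.52 (SE 0.10, edgeR quasi-likelihood adjusted p = 0.00133).

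Sufu (ENSMUSG00000025231, chromosome 19 from 46396896 to 46488804) encodes the negative regulator that holds GLI proteins in the cytoplasm. Its level was 27.3, 26.9, 35.1 and 32.8 CPM in control and 30.4, 24.3, 30.6 and 32.9 CPM in dcKO replicates 1 to 4. The samples of the groups were intermixed. Sufu had a log2 fold change of -0.05 (SE 0.12, edgeR quasi-likelihood adjusted p = 0.778), and its 95% interval ran from -0.31 to 0.21. The log2 fold changes of Smo and Ptch1 lie outside this interval.

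The 3 Gli genes encode the transcription factors at the end of the pathway, and all 3 were higher in dcKO. Gli1 (ENSMUSG00000025407, chromosome 10 from 127329882 to 127341974), an activator whose own transcription depends on the pathway, showed the largest rise of the 9 genes. Its level was 7.64, 4.83, 7.27 and 5.76 CPM in control and 17.3, 15.7, 14.2 and 19.8 CPM in dcKO replicates 1 to 4. Every dcKO sample lay well above every control, and the highest was dcKO replicate 4. The means were 6.38 ± 1.31 and 16.7 ± 2.39 CPM (SD, n = 4 each), 2.63-fold higher in dcKO. For Gli1 the log2 fold change was 1.39 (SE 0.16, edgeR quasi-likelihood adjusted p = 5.32e-05), 1.39 within lane 5 alone and 1.42 without dcKO replicates 1 and 2. Gli1 exons share 62 bases with Arhgap9 on the opposite strand, which had 13 to 51 reads per library against 98 to 656 for Gli1. They also share 265 bases with the antisense gene Gm47200, which has no row in the count files used here.

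Gli2 (ENSMUSG00000048402, chromosome 1 from 118834132 to 119053619) encodes the main activator that responds first to the signal. Its level was 7.5, 5.72, 7.37 and 6.73 CPM in control and 11.2, 8.9, 11.8 and 10.1 CPM in dcKO replicates 1 to 4, again without overlap. The means were 6.83 ± 0.814 and 10.5 ± 1.26 CPM (SD, n = 4 each), 1.54-fold higher in dcKO. The log2 fold change was 0.62 (SE 0.14, edgeR quasi-likelihood adjusted p = 0.00425).

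Gli3 (ENSMUSG00000021318, chromosome 13 from 15463235 to 15730026) encodes the main GLI repressor, needed for the dorsal telencephalon to form. Its level was 18.2, 12.3, 13.0 and 10.6 CPM in control and 20.9, 18, 19.2 and 20.4 CPM in dcKO replicates 1 to 4. The groups overlapped because control replicate 1 was just above dcKO replicate 2, and the other 3 controls were below all dcKO samples. The means were 13.5 ± 3.3 and 19.6 ± 1.3 CPM (SD, n = 4 each), 1.45-fold higher in dcKO. The log2 fold change was 0.54 (SE 0.15, edgeR quasi-likelihood adjusted p = 0.0144). The exact permutation test gave p = 0.0571, two-sided. The edgeR call was lost without control replicate 2 (adjusted p = 0.0504), without dcKO replicate 1 (adjusted p = 0.0523) and without dcKO replicates 1 and 2 together (adjusted p = 0.09). The antisense gene Gm6556 shares 188 bases of Gli3 exons and had 9 to 46 reads per library, against 250 to 675 for Gli3.

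For the 6 genes without overlap, the exact permutation test gave the smallest p that 4 samples against 4 allow, 0.0286. Control replicate 1 was the control nearest to the dcKO mean for 7 of the 8 called genes, Ptch1 being the exception, where it was control replicate 3. Of the 6202 genes called in the whole table, control replicate 1 was the nearest control for 44.2%, more than any other control. Without dcKO replicates 1 and 2, 4 of the 9 genes were called higher and 2 lower, and 1388 and 1581 of all genes, against 3074 and 3128 with all 8 libraries.

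**Figure D2:**
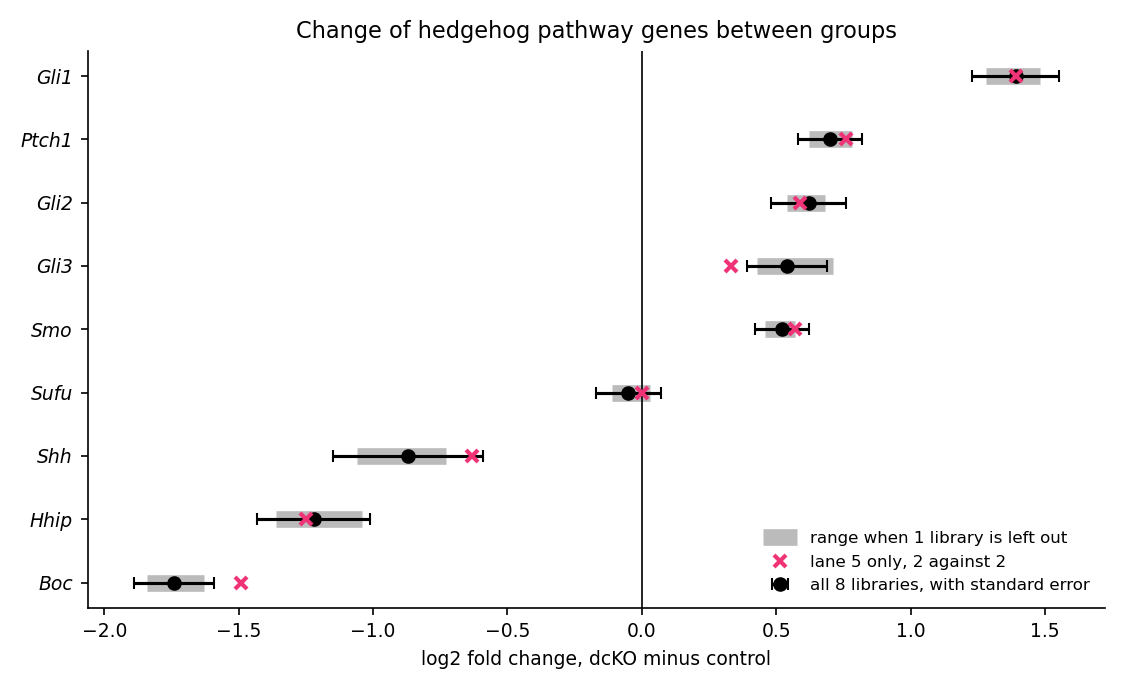
Log2 fold change of each hedgehog pathway gene, dcKO minus control (x axis), from edgeR. Black points give the value over all 8 libraries with its standard error, grey bars the range when 1 library is left out, and crosses the value within lane 5 (2 samples a group, no test). Gli1 at 1.39 and Boc at -1.74 stand at the ends, the grey bar of Sufu crosses 0, and no other bar does.

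Levels of different genes were compared per length, as CPM divided by the kilobases of annotated exon. In control cortex Boc stood highest at 7.11 ± 1.54 CPM per kb (SD, n = 4), above the ranges of all the others on this length. Sufu at 3.97 and Smo at 3.94 overlapped each other, and Ptch1 followed at 2.99. Gli3 at 1.41, Hhip at 1.29, Gli1 at 1.28 and Gli2 at 0.994 came next, with neighbours within this set overlapping. Shh was lowest at 0.5 and clear of Gli2. In dcKO cortex the order changed, with Smo at 5.65, Ptch1 at 4.86, Sufu at 3.84 and Gli1 at 3.35 CPM per kb at the top. Neighbours within this set overlapped, and Gli1 was clear of Boc. Boc at 2.13 and Gli3 at 2.04 overlapped, and Gli2 at 1.53, Hhip at 0.555 and Shh at 0.274 were each clear of the gene before. Boc thus went from the first to the fifth place and Gli1 from the seventh to the fourth. With the longest transcript in place of the exon union, Gli1 stood above Hhip in control and Gli3 above Boc in dcKO, and the other places held. On that length Boc, at 5.49 to 8.63 CPM per kb in control, was no longer clear of Sufu at 5.95 to 7.76 or of Smo at 5.13 to 6.47, whereas in dcKO Smo was clear of Ptch1 and Sufu of Gli1.

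**Figure D3:**
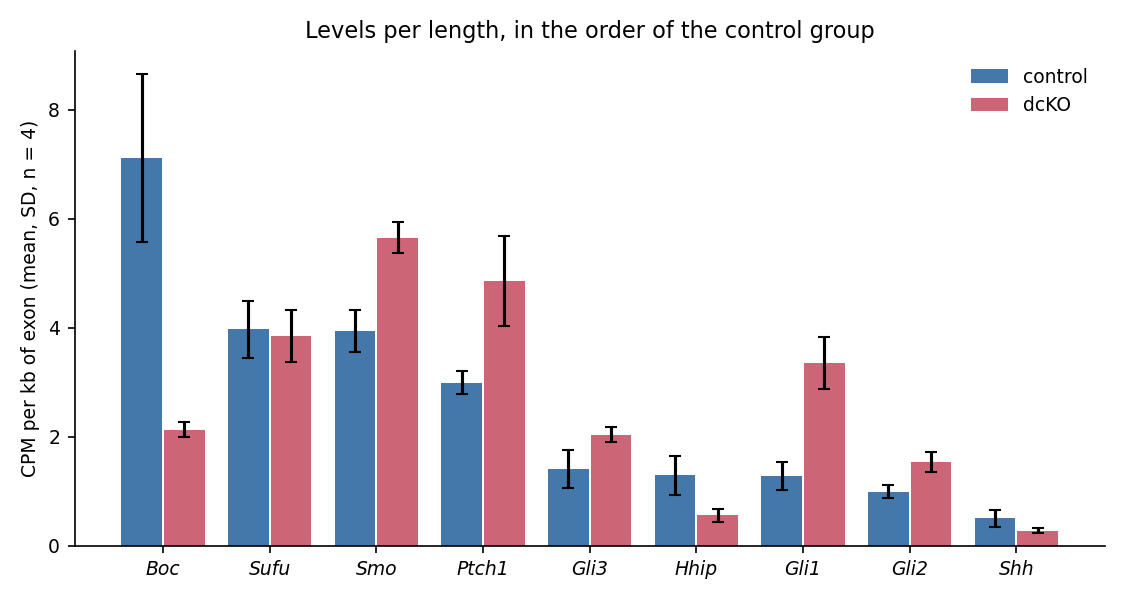
Level of each gene per length (y axis, CPM per kilobase of exon, starting at 0) in control (blue) and dcKO (red) cortex, in the order of the control group. Bars are means and whiskers the SD (n = 4). Boc falls from 7.11 to 2.13, while Gli1 rises from 1.28 to 3.35.

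The balance among the Gli genes was also compared per length, in ratios chosen after the values had been seen, so no p-value is given for them. The ratio of Gli1 to Gli3 was 0.805, 0.753, 1.08 and 1.05 in control and 1.59, 1.68, 1.42 and 1.87 in dcKO replicates 1 to 4. Gli1 was thus at about the level of Gli3 in control and above it in every dcKO sample. The ratio of Gli1 to Gli2 went from 1.27 ± 0.122 to 2.22 ± 0.439 (SD, n = 4 each), with no overlap between the groups. The ratio of Gli2 to Gli3 was 0.726 ± 0.142 in control and 0.748 ± 0.0772 in dcKO, with overlapping groups. The ratio of Boc to Cdon, which encodes the other co-receptor of the same family, was 1.64 ± 0.747 in control and 0.312 ± 0.0784 in dcKO.

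Likeness of pattern was measured as the root mean square difference of standardised log2 CPM over the 8 samples, where 0 means the same pattern. Among the 9 genes, Gli1 was closest to Smo (0.359), followed by Ptch1 (0.403), Gli2 (0.404) and Gli3 (0.497). Hhip was closest to Boc (0.487) and then to Shh (0.595). Many other genes lay closer. Among all tested genes, Smo, Ptch1, Gli2 and Gli3 had ranks 239, 418, 421 and 966 in likeness to Gli1. Boc and Shh had ranks 822 and 1835 in likeness to Hhip. Over the whole table, the genes most like Shh were Csnk1g3 (0.153), Ube2d1 (0.217) and Gtpbp4 (0.239). Those most like Ptch1 were Slc44a5 (0.138), Ddx19a (0.187) and Bbs2 (0.191). For Gli1 they were Rnf207 (0.173), Pamr1 (0.184) and Ccdc34 (0.193), and for Hhip they were Cdk19 (0.169), Galnt7 (0.194) and Ust (0.214). The 8 samples form 2 groups, so this measure includes any difference between the groups that genes share.

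Beyond the 9 genes, 68 further genes of the pathway were examined, of which 64 passed the filter. In dcKO 19 of the 64 were higher and 16 were lower, beside 18.6% and 18.9% of all genes tested, and their median log2 fold change was -0.01 beside 0.02. Without dcKO replicates 1 and 2, 8 were higher and 5 lower, with Gpr161, Grk2, Ift52, Tctn1 and Bbs4 among those no longer called, and with library totals in place of TMM, 21 were higher and 8 lower.

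Among the 7 genes of ligand release and carriage, 2 were lower and 2 higher. Scube1, a member of a secreted family that carries the lipid-modified ligand, fell from 133 ± 4.58 to 41.7 ± 7.55 CPM (SD, n = 4 each), with a log2 fold change of -1.67. Disp2, a paralogue of the ligand transporter Disp1, fell by 0.46 on the log2 scale, whereas Disp1 and the protease gene Adam17 rose by 0.41 and 0.26. The calls of Disp1, Disp2 and Adam17 were each lost on leaving out single libraries, with highest adjusted p of 0.125, 0.0683 and 0.0848 in the edgeR test.

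Of the 7 other receptors and co-receptors, 3 were higher and 1 was lower. Gpc3 and Gpc4, cell surface proteoglycans of the glypican family, rose from 5.45 ± 1.73 to 14.2 ± 4.47 CPM and from 14.8 ± 1.6 to 28.6 ± 4.43 CPM (SD, n = 4 each), log2 fold changes of 1.37 and 0.95. Gpc6, another glypican gene, fell by 0.48 on the log2 scale, a call lost on leaving out any 1 of control replicates 1, 2 and 3 and dcKO replicates 2 and 4 (edgeR adjusted p up to 0.0673), without dcKO replicates 1 and 2 together (0.0585) and with library totals (0.0855). Cdon had a log2 fold change of 0.58 and did not pass the test (adjusted p = 0.0641 in edgeR's quasi-likelihood test), with overlapping groups. The difference between Boc and Cdon is given above as their ratio.

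Between SMO and GLI, 5 of 20 genes were higher and 6 were lower. Iqce, whose product is part of a ciliary complex that anchors active SMO, rose from 45.2 ± 2.02 to 66.9 ± 11.7 CPM (SD, n = 4 each), with a log2 fold change of 0.57. Gpr161, a ciliary receptor that restrains the pathway, fell from 113 ± 10.2 to 81.7 ± 11.7 CPM (SD, n = 4 each), with a log2 fold change of -0.46. Grk2, a kinase that acts on SMO, fell by 0.36 on the log2 scale, and Arrb2, an arrestin, rose by 0.29.

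Among 18 genes of the primary cilium, on which vertebrate hedgehog signalling depends, 6 were higher, 1 was lower and 11 did not pass the test. Ofd1, a centriolar protein gene, showed the smallest p, with levels of 15.0 ± 0.826 and 23.0 ± 2.81 CPM (SD, n = 4 each) and a log2 fold change of 0.62. Ift52, Tctn1 and Bbs4, genes of intraflagellar transport, of the transition zone and of the BBSome, rose by 0.49, 0.49 and 0.27.

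The 15 other genes reported as hedgehog targets did not move in 1 direction, with 4 higher and 6 lower of the 13 tested and a median log2 fold change of -0.22. Ccnd1, the cyclin D1 gene, rose from 29.4 ± 2.65 to 47.9 ± 4.81 CPM (SD, n = 4 each), with a log2 fold change of 0.71. Nkx2-1, a homeobox gene of the ventral forebrain, rose from 1.28 ± 0.293 to 3.98 ± 0.508 CPM, a log2 fold change of 1.63. Mycn, a proto-oncogene of proliferating precursors, fell from 86.9 ± 13.6 to 55.2 ± 5.76 CPM, a log2 fold change of -0.66. Hsd11b1, a steroid dehydrogenase gene, fell from 3.57 ± 0.41 to 0.632 ± 0.561 CPM, a log2 fold change of -2.46, which was -3.30 without dcKO replicate 3 and -1.94 without dcKO replicates 1 and 2. Nkx2-2, a ventral patterning factor also found in oligodendrocyte lineage cells and named after its values were seen, fell by 0.97 on the log2 scale. Foxa2, a target in the floor plate, had 0 reads in every control and at most 1 read in a dcKO library. Many of these targets have other known inputs in neural tissue, and the list was assembled with earlier results of these data known.

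**Figure D4:**
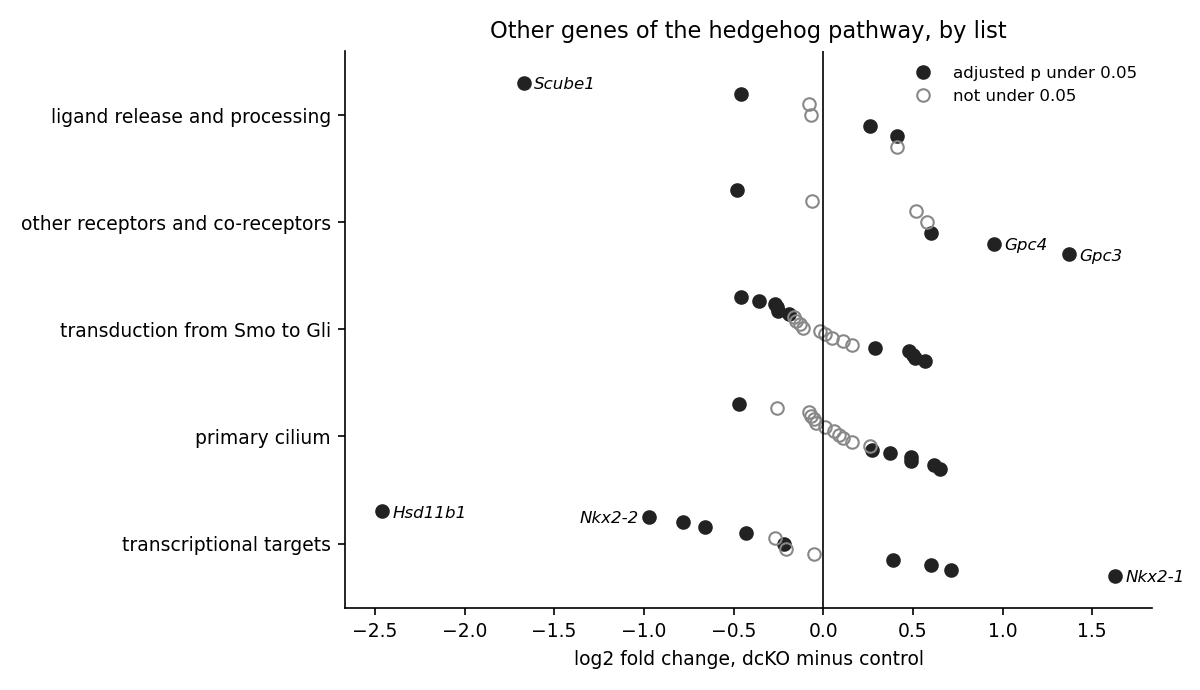
Log2 fold change, dcKO minus control (x axis), of the tested genes of each list of other hedgehog pathway genes (rows), 1 point per gene. Filled points have an adjusted p under 0.05 in edgeR's quasi-likelihood test and open points do not. Points fall on both sides of 0 in every list, and Hsd11b1 at -2.46 and Nkx2-1 at 1.63 are the outermost.

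Markers of several cell types moved with the same groups as these genes. Markers of oligodendrocyte precursors, cells known to respond to hedgehog ligands, summed to 422 to 456 CPM in control and 234 to 312 CPM in dcKO samples, and all 6 were lower. Those of GABAergic interneurons summed to 642 to 681 and 976 to 1070 CPM, and 7 of 9 were higher. Those of striatal projection neurons, which lie next to the cortex, summed to 313 to 403 and 458 to 918 CPM, and 6 of 10 were higher. Markers of diencephalon and midbrain summed to 5.59 to 8.51 and 34.2 to 57.1 CPM. Of the 10, 5 were called higher and 5, among them Foxa1 and Foxa2, were under 1 CPM in all samples. Otx2, among those called higher and named after its values were seen, is also on the choroid plexus list. It was at 8.55, 13.6, 3.07 and 3.95 CPM in dcKO replicates 1 to 4 and at no more than 0.276 CPM in control. Markers of microglia summed to 88.2 to 118 and 168 to 210 CPM, and 6 of 8 were higher. Those of radial glia and astrocytes, in which Gli genes are commonly found, summed to 1970 to 2110 CPM in control. They were at 3030 CPM in dcKO replicate 3 and at 1450 to 1800 CPM, below every control, in the other 3 dcKO samples. Of the 10 genes, 1 was called higher and 1 lower. Choroid plexus markers were at 7.95 to 16.6 CPM in control and at 624, 1190, 26.2 and 11.7 CPM in dcKO replicates 1 to 4. Markers of meninges and of endothelial cells overlapped between the groups, with 0 and 3 of 8 called, respectively. The mitochondrial share of counts was 2.06 to 3.23% in control and 3.57 to 5.47% in dcKO. The part of these differences in the changes of the hedgehog pathway genes was not tested.

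**Figure D5:**
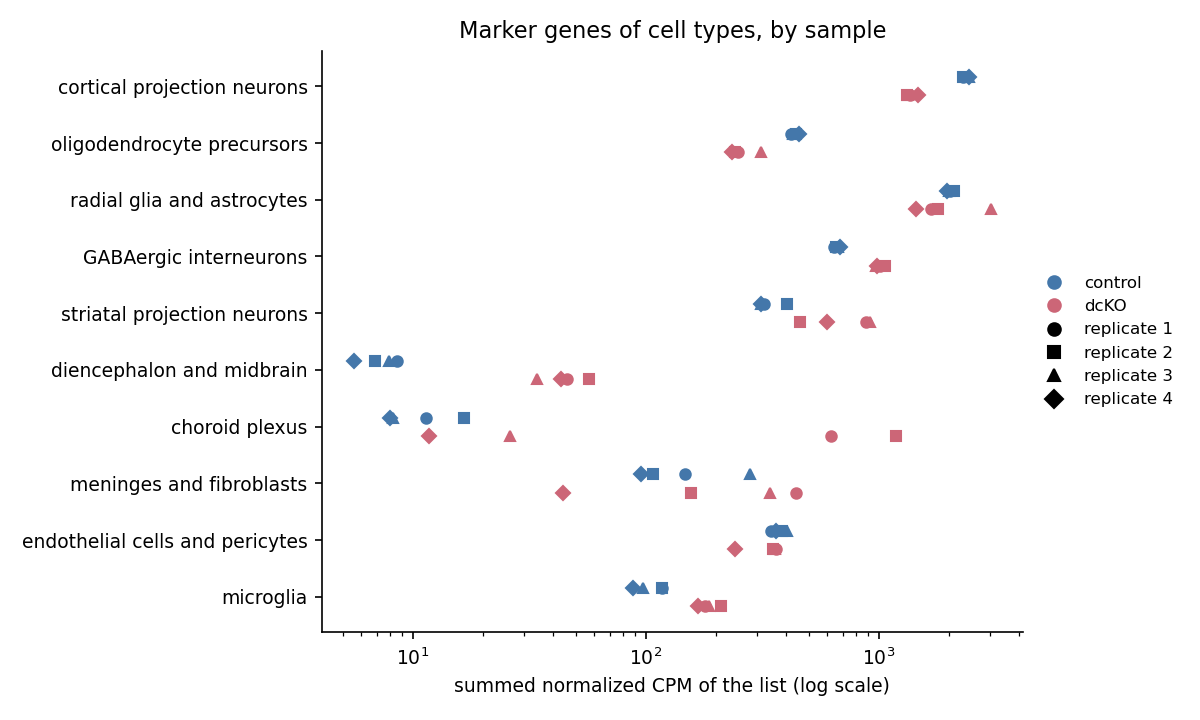
Summed CPM of each marker list (x axis, log scale) in the 4 control (blue) and 4 dcKO (red) samples, 1 row per cell type or neighbouring region. Cortical neuron and oligodendrocyte precursor markers lie lower in dcKO, interneuron, striatal, diencephalic and microglial markers higher, and choroid plexus markers reach 624 and 1190 CPM in 2 dcKO samples.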

How the data were processed

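RNA of P3 cortex was isolated with Trizol and made into libraries with the TruSeq kit, and the deposited files hold raw counts per gene, which the authors obtained with featureCounts after alignment to mm10. The aligner, annotation release and strand setting are not given in the sources used here. Identifiers were matched to GENCODE's annotation of the same build for symbols, exon lengths and overlaps (48349 of 48709). Counts were analysed with edgeR 4.0.16 in R 4.3.3: TMM normalization, its default filter (minimum count 10), robust quasi-likelihood F test of 4 dcKO against 4 control samples with no block, and Benjamini-Hochberg adjustment over 16525 genes with a threshold of 0.05. Single genes were compared by exact permutation (SciPy 1.17.1). Depth was 21126713 to 32110285 reads per sample, and a floor of 3 reads is 0.148 normalized CPM in the shallowest, for counting error only. No replicates agreed within sampling noise.

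The genes named were the 9 members, the 2 target genes, up to 4 genes of each pathway list by smallest p among those called with a mean of at least 1 CPM, and the 3 genes most like each of Shh, Ptch1, Gli1 and Hhip (log2 CPM, prior count 2). Exceptions are marked as chosen after values were seen, and some genes that the rule names are left out. The members and lists were chosen with earlier results of these data known. Alternatives were DESeq2 1.42.0, limma-voom (limma 3.58.1), median-of-ratios size factors, library totals, no filter, a filter of 10 counts in all samples, a block for replicate number or for lane, lane 5 alone, longest transcripts, each library left out, and, chosen after seeing the data, dcKO replicates 1 and 2 left out together and the best match in promoters.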

Additional observations from a re-analysis of the deposited data

Results flagged for a closer look

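In groups of 4, a sample was singled out when its gap to the nearest other sample took up more of the group's range than Dixon's 95% critical value allows. This was the case in 6 of the 62 groups examined, where chance gives about 3.1, and in none of the 9 members. dcKO replicate 4 was the highest of its group for Scube1 at 53.0 CPM (the others 37.2 to 39.2) and for Disp2 at 227.0 CPM (the others 142 to 150). Control replicate 3 was highest for Adam17 at 26.2 CPM (23.5 to 23.9), and control replicate 4 was lowest for Gpc6 at 16.3 CPM (21.2 to 22.0). Control replicate 1 was highest for Tctn1 at 21.9 CPM (15.7 to 16.6), and dcKO replicate 3 was highest for Hsd11b1 at 1.47 CPM (0.254 to 0.423).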

How the results depend on the processing

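Ptch1, Smo, Gli1, Gli2, Hhip and Boc kept their direction and call under every alternative run with a test, at log2 fold changes of 0.62 to 0.82, 0.46 to 0.64, 1.28 to 1.51, 0.54 to 0.74, -1.36 to -1.04 and -1.84 to -1.61. With 1 library left out, Shh ranged from -1.06 to -0.73 and Gli3 from 0.43 to 0.71, and some of these fits lost the call. Without dcKO replicates 1 and 2 together, Shh was -1.04 and Gli3 0.55, and neither passed the threshold (adjusted p = 0.076 and 0.09 in edgeR's test). That fit has fewer samples, and it called 5 other pathway genes lower and 8 higher, and 1581 and 1388 of all genes. Sufu, not called in any fit, changed sign with library totals (0.07), without those 2 libraries (0.06) and within leaving out 1 library (-0.11 to 0.03). Library totals moved the median of all genes to 0.15, with 2102 called lower and 4584 higher, and called 8 other pathway genes lower. Leaving out 1 library gave 8 to 14 other pathway genes lower. Smarcc2 was -0.81 in lane 5. By longest transcript, levels per kb were 6.75 for Sufu, 5.86 for Smo, 4.08 for Ptch1 and 1.57 for Gli1 in control, and 8.41 for Smo, 6.64 for Ptch1, 6.53 for Sufu, 4.13 for Gli1 and 2.4 for Gli3 in dcKO. These levels divide the same CPM by a shorter length. The cause of the other shifts was not tested. With the replicate number as a block, 5 members were higher and 3 lower, as without it, Gli1 was 1.40, and 2932 of all genes were higher and 2982 lower. Same-numbered samples correlated at 0.171, -0.068, 0.213 and -0.024, so the numbers were not taken as pairs. Shh, at 18 to 47 reads per library, is limited by its low counts.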
